A study of Mus musculus with 20 samples.

Results

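The genes described here encode core proteins of the spliceosome, the machine that cuts introns out of pre-mRNA. They were chosen by name: every protein-coding gene of the count table whose mouse symbol starts with Prpf, Sf3a, Sf3b, Snrp or Lsm. That gave 47 genes of 25317 gene identifiers in the table, 17550 of them protein-coding. Another 2 names that matched, Snrp1c-ps2 and Snrpert, are processed pseudogenes and were left out, and Snrpn was not analysed here. The family was selected with its values in ribosome pull-down against lysate in view, so those values are a description without a test. Between genotypes, single genes are tested. The members and classes were chosen with earlier results of these data known, and summaries over them are descriptions in every comparison. All 47 genes have a coding length. Of these, 46 had enough counts to be tested in every comparison. The exception is Lsmem1, which matches the rule by its letters only (it encodes a leucine-rich single-pass membrane protein) and whose mean stayed below 1.0 CPM in every group.

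RNA was sequenced from the cortex of C57BL/6 mice at 3 months of age, 1 animal per sample. The het mice carried a heterozygous Foxp2 deletion, stated by the submitters to be in the cortex, and the wt mice were wild type; the sources used here name no driver of the deletion. From each animal the polysomes that carry a GFP tag were pulled down with an anti-GFP serum (bacTRAP, here IP), and a small part of the same lysate, taken before the pull-down, served as Input. The sources used here do not say which cells carry the tag, and both genotypes went through the pull-down. The comparisons use 3 het animals (het729, het786, hetBT13) and 5 wt animals (wt734, wt736, wt785, wtBT13, wtBT14), each with an IP and an Input library.

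An intron is removed by small nuclear ribonucleoproteins (snRNPs), each built on an RNA of its own. U1 reads the 5′ splice site, U2 binds the branch site with the help of the SF3a and SF3b complexes, and U4, U5 and U6 join as a preassembled tri-snRNP whose largest protein, Prpf8, sits at the catalytic centre. The U1, U2, U4 and U5 RNAs are held in a ring of Sm proteins and U6 in a ring of Lsm proteins, and a related Lsm ring in the cytoplasm takes part in mRNA decay. The proteins range from very small ring subunits to Prpf8, one of the largest and most conserved proteins of the nucleus.

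The coding sequences ran from 228 bases in Snrpg, a subunit of the Sm ring, to 7005 bases in Prpf8 (stop codon not counted). The whole coding sequence of Snrpg (chromosome 6, plus strand, from the GENCODE transcript on GRCm38) is shown as the short end of that range, with the start codon and the stop codon in capitals. It has 231 bases with the stop codon and encodes 76 residues.
Snrpg coding sequence: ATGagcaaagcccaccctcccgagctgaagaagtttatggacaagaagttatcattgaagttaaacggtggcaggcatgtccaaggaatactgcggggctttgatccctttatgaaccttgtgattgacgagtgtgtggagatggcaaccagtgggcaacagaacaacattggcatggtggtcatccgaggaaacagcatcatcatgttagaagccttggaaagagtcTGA
The 250 bases before the start of transcription (RefSeq, GRCm38.p6) are shown for the 2 genes highest above Input by the mean log2 change of both genotypes, Prpf8 and Sf3b3, and for the gene furthest below it, Sf3b2, each written along its own gene. Capitals mark matches on either strand to CCGGAAG (the core bound by ETS factors), CCAAT and TATAAA.
Prpf8 promoter, chr11:75486527-75486776, plus strand: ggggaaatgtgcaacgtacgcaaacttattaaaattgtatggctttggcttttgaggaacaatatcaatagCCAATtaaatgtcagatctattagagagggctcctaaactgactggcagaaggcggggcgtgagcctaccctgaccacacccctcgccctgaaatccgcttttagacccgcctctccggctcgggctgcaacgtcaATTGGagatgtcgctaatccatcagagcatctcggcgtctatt
Sf3b3 promoter, chr8:110846804-110847053, minus strand: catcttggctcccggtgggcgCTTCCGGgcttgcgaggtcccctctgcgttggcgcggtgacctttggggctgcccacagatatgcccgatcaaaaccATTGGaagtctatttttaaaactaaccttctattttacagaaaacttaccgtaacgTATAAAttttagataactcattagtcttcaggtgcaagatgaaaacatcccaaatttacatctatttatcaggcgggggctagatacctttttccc
Sf3b2 promoter, chr19:5295456-5295705, minus strand: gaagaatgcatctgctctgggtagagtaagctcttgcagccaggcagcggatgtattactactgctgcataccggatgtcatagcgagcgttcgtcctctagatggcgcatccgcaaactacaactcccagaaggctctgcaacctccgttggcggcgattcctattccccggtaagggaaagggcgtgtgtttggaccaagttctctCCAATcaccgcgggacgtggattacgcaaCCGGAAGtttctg
A promoter could be matched by symbol for 38 of the 47 genes, and the one nearest the annotated gene start was taken. For the protein-coding genes set beside them the first listed promoter was taken, whether or not the gene was tested. In the 250 bases before the start CCGGAAG was found in 12 of 38 (31.6%), against 11.22% of 13522 promoters of protein-coding genes. CCAAT was found in 16 of 38 (42.1%), against 35.75%, and TATAAA in 2 of 38 (5.3%), against 8.02%. GCATGCG, the core of the NRF1 motif, was found in 3 of 38 (7.9%), against 4.64%, and AAGATGG, the core of the YY1 motif, in 0 of 38, against 4.12%. Sf3b2 and Sf3b3, which lie on opposite sides of Input, both hold CCGGAAG and CCAAT, and Prpf8 holds CCAAT only. Sf3b3 also holds TATAAA. None of these motifs contains another, and a match is a description of letters and not of a bound site.

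The 16 libraries held 2782934 to 5754169 counts. Foxp2 averaged 47.4 ± 13.1 CPM (CPM are counts scaled to library size with TMM; SD, n = 3) in het IP and 71.1 ± 21.7 CPM (n = 5) in wt IP, and 28.4 ± 3.57 CPM in het Input and 47.9 ± 11.3 CPM in wt Input. Its log2 change was -0.59 in IP (adjusted p = 0.981) and -0.76 in Input (adjusted p = 0.501, edgeR quasi-likelihood test with Benjamini-Hochberg adjustment), lower on average in het in both fractions and not past the threshold. The fractions differed in cell type markers. Of 6 markers each, oligodendrocytes had 5 lower in IP than in Input and 0 higher, in het and in wt alike. Interneurons had 6 lower, and cortical glutamatergic neurons 5 higher and 1 lower, again in both genotypes. Some markers were counted in neither direction, so a marker not counted as lower is not thereby higher. Of all genes tested, edgeR called 22.6% higher and 22.1% lower in het (adjusted p below 0.05), and 28.5% and 25.6% in wt. The summed level of the oligodendrocyte markers was 886 to 1415 CPM in het IP and 1015 to 1462 CPM in wt IP, against 3585 to 4835 CPM in het Input and 3672 to 4999 CPM in wt Input. That of the interneuron markers was 507 to 581 CPM in het IP and 491 to 642 CPM in wt IP, against 1139 to 1241 CPM in het Input and 1063 to 1174 CPM in wt Input. The summed glutamatergic markers, although 5 of 6 were higher, stood at 1593 to 1621 CPM in het IP and 1583 to 1901 CPM in wt IP, against 1854 to 2056 CPM in het Input and 1354 to 1962 CPM in wt Input. Astrocyte and microglia markers were also mostly lower in IP (5 and 5 of 6 in het, 5 and 4 of 6 in wt), as were those of the striatum (5 of 6 in het, 6 of 6 in wt). Endothelial markers could be tested for 2 of 6 genes, of which 1 was lower and 0 higher in each genotype. The hippocampal markers, tested for 5 of 6 genes, were split (1 higher and 2 lower in het, 2 and 2 in wt). No marker listed was at 0 in every library. Mitochondrially encoded genes took 0.062% to 0.398% of counts in IP, the highest in het729, against 0.928% to 1.86% in Input. The part of these shifts in the values below was not tested. In bulk RNA, fewer cells of a type and less RNA per cell cannot be told apart.

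In Input, per kilobase of the principal transcript, the highest levels were those of Snrpb (149.6 CPM per kb in het, 126.6 in wt), Lsm6 (118.5 and 122.7), Snrpe (131.6 and 118.4) and Sf3b2 (124.4 and 113.2). Snrpb and Snrpe are Sm ring subunits, Lsm6 belongs to both Lsm rings, and Sf3b2 is a pre-mRNA binding subunit of SF3b. Levels per kilobase depend on the transcript chosen. That of Lsm6 had 541 bases, against 4076 in all exons of the gene, and that of Snrpe 503 against 1372. The lowest tested genes per kilobase were Lsm11, an Sm-like protein of the U7 snRNP that processes histone mRNA (1.60 in het, 2.11 in wt), and Sf3a2, the subunit of SF3a that links it to U2 (2.90 and 1.98). Prpf8 stood at rank 40 of 47 in wt Input, with 5.41 CPM per kb in het and 6.01 in wt, and at rank 19 in wt IP, with 27.3 in het IP and 30.8 in wt IP. Some levels are uncertain because the transcripts share sequence with those of other genes. Of the 50-base windows of the transcript, 89.5% for Snrpf, 62.8% for Lsm7, 51.2% for Sf3b4 and 44.0% for Lsm5 also occur in transcripts of other genes, and 18.6% to 28.4% for Snrpg, Lsm6, Sf3a2, Lsm3, Snrpc, Snrpa and Snrpe. Exons of Snrpf also overlap genes on the opposite strand over 85.4% of their length, and without strand information such reads cannot be told apart.

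The fitted log2 changes of the spliceosome genes in IP over Input ran from -0.635 to 2.317 in het and from -0.583 to 2.346 in wt. The median log2 change of the 46 tested genes was 0.106 in het and 0.199 in wt, against 0.04 and 0.035 over all 14797 genes tested and 0.11 and 0.093 over the 12567 of them that are protein-coding, as every member is. In het the family's median thus lay at that of protein-coding genes, and without hetBT13 it was 0.061. In het, 10 of 46 were called higher in IP and 3 lower (adjusted p below 0.05), where 22.6% of all genes tested were called higher and 22.1% lower. In wt, 15 of 46 were called higher and 5 lower, where 28.5% of all genes were higher and 25.6% lower. The 10 genes called higher in both genotypes were Prpf8, Prpf6, Prpf4, Sf3b3, Snrpd3, Lsm3, Lsm4, Lsm8, Lsm11 and Lsm12, and the 3 called lower in both were Sf3b2, Sf3a1 and Snrpe. Of the 46 genes, 14 were higher in IP in all 8 animals (30.4%, against 23.0% of all genes) and 4 were lower in all 8 (8.7%, against 22.3%). These are descriptions of a contrast that was known when the family was chosen.

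**Figure D1:**
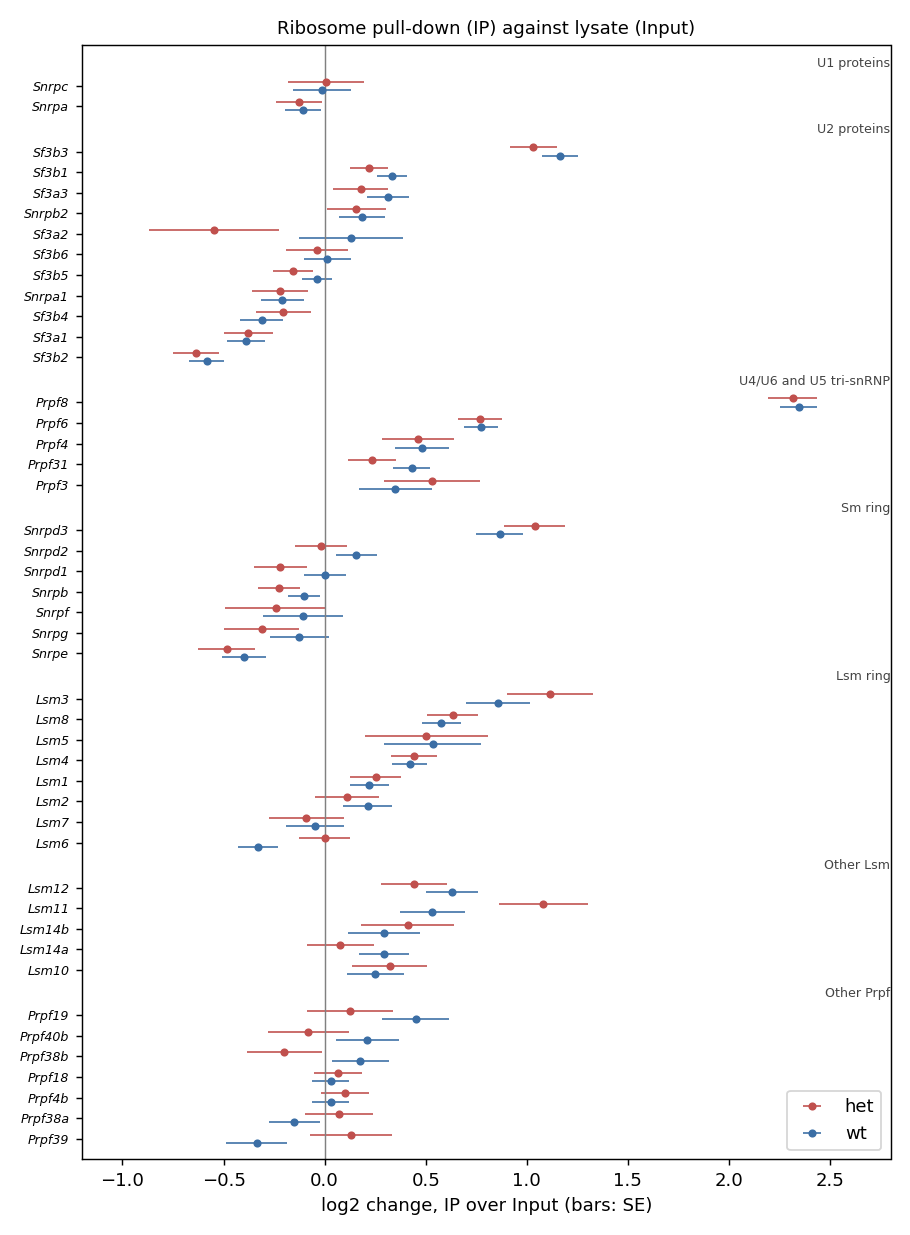
Fitted log2 change of 45 spliceosome genes in IP over Input, by class of protein, for het (red) and wt (blue), with bars of 1 SE. Prpf8 stands alone at 2.32 in het and 2.35 in wt, all 5 tri-snRNP genes lie to the right of 0, and the U2 genes lie on both sides.

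In the tri-snRNP class all genes lay above Input in both genotypes: 5 of 5 fitted changes were positive, from 0.23 to 2.32 in het and from 0.35 to 2.35 in wt, and 3 were called in het and 4 in wt. Prpf8 (chromosome 11, 75486816 to 75509449, plus strand, mm10) had 149.6, 197.9 and 245.3 CPM in the IP of het729, het786 and hetBT13, against 31.7, 42.2 and 43.7 CPM in their Input. In wt734, wt736, wt785, wtBT13 and wtBT14 it had 241.1, 174.6, 231.0, 236.3 and 232.1 CPM in IP, against 49.1, 45.9, 41.5, 39.2 and 42.1 CPM in Input. Every IP library was thus far above every Input library, and the groups did not overlap. The means were 198 ± 47.9 CPM (SD, n = 3) in het IP and 39.2 ± 6.57 CPM in het Input, a ratio of 5.04, and 223 ± 27.3 CPM (n = 5) in wt IP and 43.6 ± 3.92 CPM in wt Input, a ratio of 5.12. The fitted log2 changes were 2.32 (SE 0.12) and 2.35 (SE 0.09). Within single animals the log2 ratio ran from 1.92 in wt736 to 2.58 in wtBT13.

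Prpf6, which bridges U5 and U4/U6 in the tri-snRNP, had a log2 change of 0.77 in het (SE 0.11) and 0.77 in wt (SE 0.08). Prpf4, a U4/U6 protein, had 0.46 (SE 0.18) and 0.48 (SE 0.13). Prpf31, which binds the U4 snRNP, had 0.23 (SE 0.12) in het and 0.43 (SE 0.09) in wt and was called in wt, and Prpf3, the partner of Prpf4, had 0.53 (SE 0.24) and 0.35 (SE 0.18) and was called in neither. The other 2 large U5 proteins are not in this family by name. Snrnp200, the helicase that unwinds U4 from U6, averaged 112 ± 27.5 CPM in het IP and 32.3 ± 5.44 CPM in het Input, and 120 ± 18.3 CPM in wt IP and 30.3 ± 3.13 CPM in wt Input, log2 changes of 1.77 (SE 0.15) and 1.98 (SE 0.11). Eftud2, the GTPase of U5, had 0.91 (SE 0.09) in het and 0.95 (SE 0.07) in wt. Snrnp200 and Eftud2 were the 2 genes of smallest p among the 62 other spliceosome genes in IP against Input, in both genotypes. They were named for that, so their values do not describe the U5 proteins as a class.

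The U2 class was split within its own complexes. In SF3b, Sf3b3 was called higher and Sf3b2 lower in both genotypes, while Sf3b1 was called higher in wt and Sf3b4 lower in wt. Sf3b3 (chromosome 8, 110810239 to 110846787, minus strand), a large scaffold of SF3b, had 97.4, 134 and 144 CPM in the IP of het729, het786 and hetBT13, against 59.3, 49.5 and 73.5 CPM in their Input. The wt animals, in the order wt734, wt736, wt785, wtBT13 and wtBT14, had 125, 111, 130, 157 and 141 CPM in IP, against 54.0, 49.9, 57.3, 69.5 and 65.9 CPM in Input. Every IP library lay above every Input library. The ratio of means was 2.06 in het and 2.24 in wt, with log2 changes of 1.03 (SE 0.12) and 1.16 (SE 0.09).

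Sf3b2 (chromosome 19, 5273932 to 5295455, minus strand) went the other way. It had 280, 258 and 234 CPM in the IP of het729, het786 and hetBT13, against 361, 394 and 447 CPM in their Input. Among wt734, wt736, wt785, wtBT13 and wtBT14 the values were 236, 252, 264, 242 and 220.0 CPM in IP, against 325, 329.6, 388, 400.0 and 380.3 CPM in Input. All IP libraries lay below all Input libraries, with IP at 0.642 of Input in het and 0.666 in wt and log2 changes of -0.64 (SE 0.11) and -0.58 (SE 0.09). Sf3b1, the branch-site clamp of SF3b and the gene of the longest coding sequence after Prpf8, had 240.1, 219 and 273 CPM in the IP of het729, het786 and hetBT13, against 198, 197 and 233 CPM in their Input. In wt734, wt736, wt785, wtBT13 and wtBT14 it had 243, 234, 260, 271 and 276 CPM in IP, against 209, 198, 211, 191 and 209.6 CPM in Input. It was higher in IP in all 8 animals, but the het groups overlapped, and the log2 changes were small at 0.22 (SE 0.09) in het and 0.33 (SE 0.07) in wt.

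Sf3a1 (chromosome 11, 4160350 to 4182541, plus strand), the scaffold of SF3a, had 59.3, 57.8 and 51.2 CPM in the IP of het729, het786 and hetBT13, against 64.4, 73.8 and 81.7 CPM in their Input. The 5 wt animals, from wt734 to wtBT14 in the order above, had 51.7, 57.2, 57.8, 57.6 and 49.9 CPM in IP, against 64.9, 76.1, 66.4, 77.8 and 73.9 CPM in Input. The IP libraries were all below the Input libraries, with log2 changes of -0.38 (SE 0.12) and -0.39 (SE 0.09). In het the call for Sf3a1 was lost without het786 (log2 -0.39, adjusted p = 0.0585) and without hetBT13 (-0.23, adjusted p = 0.204, edgeR). Its partner Sf3a3 had 0.18 (SE 0.14) in het and 0.32 (SE 0.10) in wt and was called higher in wt. Sf3b4, an RNA-binding SF3b subunit, had -0.20 (SE 0.14) in het and -0.31 (SE 0.11) in wt and was called lower in wt. The other U2 genes were called in neither genotype. Snrpa1 and Snrpb2, the U2-specific partners that bind a stem-loop of U2 RNA, lay on opposite sides of Input, at -0.22 (SE 0.14) and 0.16 (SE 0.15) in het and -0.21 (SE 0.11) and 0.19 (SE 0.11) in wt. The small SF3b subunits Sf3b5 and Sf3b6 lay near Input, at -0.16 and -0.04 in het and -0.04 and 0.01 in wt. Sf3a2 had the widest error, at -0.55 (SE 0.32) in het and 0.13 (SE 0.26) in wt, on a mean of 4.38 to 6.42 CPM in the 4 groups.

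In the Sm ring, 1 of 7 genes was called higher (Snrpd3) and 1 lower (Snrpe) in each genotype, and the class medians were -0.23 in het and -0.10 in wt. Snrpd3 averaged 69.0 ± 15.3 CPM in het IP and 33.6 ± 8.93 CPM in het Input. In wt it averaged 57.0 ± 17.0 CPM in IP and 30.9 ± 5.88 CPM in Input. The log2 changes were 1.04 (SE 0.15) and 0.87 (SE 0.12). It was higher in IP in all 8 animals, but the wt groups overlapped (36.4 CPM in wtBT13 IP, 38.7 CPM in wt734 Input). Its IP level was 53.1, 36.4 and 41.0 CPM in hetBT13, wtBT13 and wtBT14, against 66.1 to 83.7 CPM in the animals named by a number. Snrpe (chromosome 1, 133603871 to 133610291, minus strand) had 50.6, 45.0 and 45.9 CPM in the IP of het729, het786 and hetBT13, against 71.9, 72.5 and 54.3 CPM in their Input. The wt animals wt734, wt736, wt785, wtBT13 and wtBT14 had 39.3, 50.0, 49.8, 41.1 and 43.2 CPM in IP, against 65.2, 66.4, 76.3, 42.6 and 47.3 CPM in Input. IP was lower in all 8 animals, with little difference in wtBT13 and wtBT14, so that the wt groups overlapped. The log2 changes were -0.49 (SE 0.14) in het and -0.40 (SE 0.11) in wt, and without het786 the het call was lost (-0.38, adjusted p = 0.0954, edgeR).

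Snrpb, the Sm protein B with the highest Input level per kilobase, had 164, 131 and 152 CPM in the IP of het729, het786 and hetBT13, against 174, 182 and 165 CPM in their Input. In wt734, wt736, wt785, wtBT13 and wtBT14 it had 132, 136, 147, 129.5 and 138 CPM in IP, against 141, 141, 160.5, 162 and 129.9 CPM in Input. The het groups did not overlap, the wt groups did, and the log2 changes of -0.23 (SE 0.10) and -0.10 (SE 0.08) were not called. They were -0.099 in het without het786 and -0.046 in wt without wtBT13. The rest of the ring was called in neither genotype. Snrpd1 and Snrpd2, which form a pair within the ring, had log2 changes of -0.22 (SE 0.13) and -0.02 (SE 0.13) in het and 0.00 (SE 0.10) and 0.16 (SE 0.10) in wt. Snrpf and Snrpg, which assemble with Snrpe before the ring closes, had -0.24 (SE 0.25) and -0.31 (SE 0.19) in het and -0.11 (SE 0.20) and -0.12 (SE 0.15) in wt.

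The Lsm ring genes lay mostly above Input: 7 of 8 fitted changes were positive in het and 6 of 8 in wt, with medians of 0.35 and 0.32. The 7 in het include Lsm6 at 0.00. Of all tested protein-coding genes, 57.3% were positive in het and 56.7% in wt. Lsm3, Lsm4 and Lsm8 were called higher in both genotypes. Lsm8, the subunit found only in the nuclear ring on U6, had a log2 change of 0.63 (SE 0.12) in het and 0.58 (SE 0.10) in wt, while Lsm1, its counterpart in the cytoplasmic ring of mRNA decay, had 0.25 (SE 0.13) and 0.22 (SE 0.10) and was not called. Lsm3 (chromosome 6, 91515928 to 91522625, plus strand), with 306 coding bases, had 35.1, 37.5 and 45.0 CPM in the IP of het729, het786 and hetBT13, against 20.2, 21.3 and 11.9 CPM in their Input. The wt animals, in the order wt734, wt736, wt785, wtBT13 and wtBT14, had 29.4, 35.6, 31.4, 42.3 and 50.9 CPM in IP, against 21.6, 16.5, 24.6, 20.03 and 20.6 CPM in Input. No IP library overlapped an Input library, and the log2 changes were 1.12 (SE 0.21) and 0.86 (SE 0.16). Lsm4 had 0.44 (SE 0.11) and 0.42 (SE 0.09). Lsm2 and Lsm5 were positive in both genotypes without a call (0.11 and 0.50 in het, 0.21 and 0.54 in wt), Lsm5 with the wide SE of 0.30 and 0.24 of a gene at 4.14 to 6.83 CPM. Lsm7 lay at -0.09 (SE 0.19) in het and -0.05 (SE 0.14) in wt. Lsm6 stood at 0.00 (SE 0.13) in het and at -0.33 (SE 0.10) in wt, where it was called lower.

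Among the Lsm proteins outside these rings, all 5 fitted changes were positive in both genotypes, and Lsm11 and Lsm12 were called. Lsm11 had a log2 change of 1.08 (SE 0.22) in het and 0.53 (SE 0.16) in wt, and Lsm12, an RNA-binding Lsm protein, 0.44 (SE 0.16) and 0.63 (SE 0.13). Lsm10, which pairs with Lsm11 in the U7 ring, and Lsm14a and Lsm14b, which act in repression of translation and in P bodies, were not called, with log2 changes of 0.32, 0.08 and 0.41 in het and 0.25, 0.29 and 0.30 in wt. Among the Prpf genes outside the tri-snRNP, Prpf19, the ubiquitin ligase of the complex that activates the spliceosome, had 0.12 (SE 0.21) in het and 0.45 (SE 0.17) in wt and was called in wt. Prpf18, a factor of the second step of splicing, and Prpf4b, a kinase of the tri-snRNP, lay close to Input (0.06 and 0.10 in het, 0.03 and 0.03 in wt). Prpf38a, Prpf38b, Prpf39 and Prpf40b had changes of opposite sign in the 2 genotypes, from -0.20 to 0.13 in het and from -0.34 to 0.21 in wt. The U1 proteins Snrpa and Snrpc had log2 changes of -0.12 (SE 0.11) and 0.01 (SE 0.19) in het and -0.11 (SE 0.09) and -0.01 (SE 0.14) in wt, none called. Snrpa was lower in IP in 7 of 8 animals, and its het groups did not overlap, with 58.6, 59.1 and 63.7 CPM in the IP of het729, het786 and hetBT13, against 64.4, 65.8 and 67.4 CPM in their Input.

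**Figure D2:**
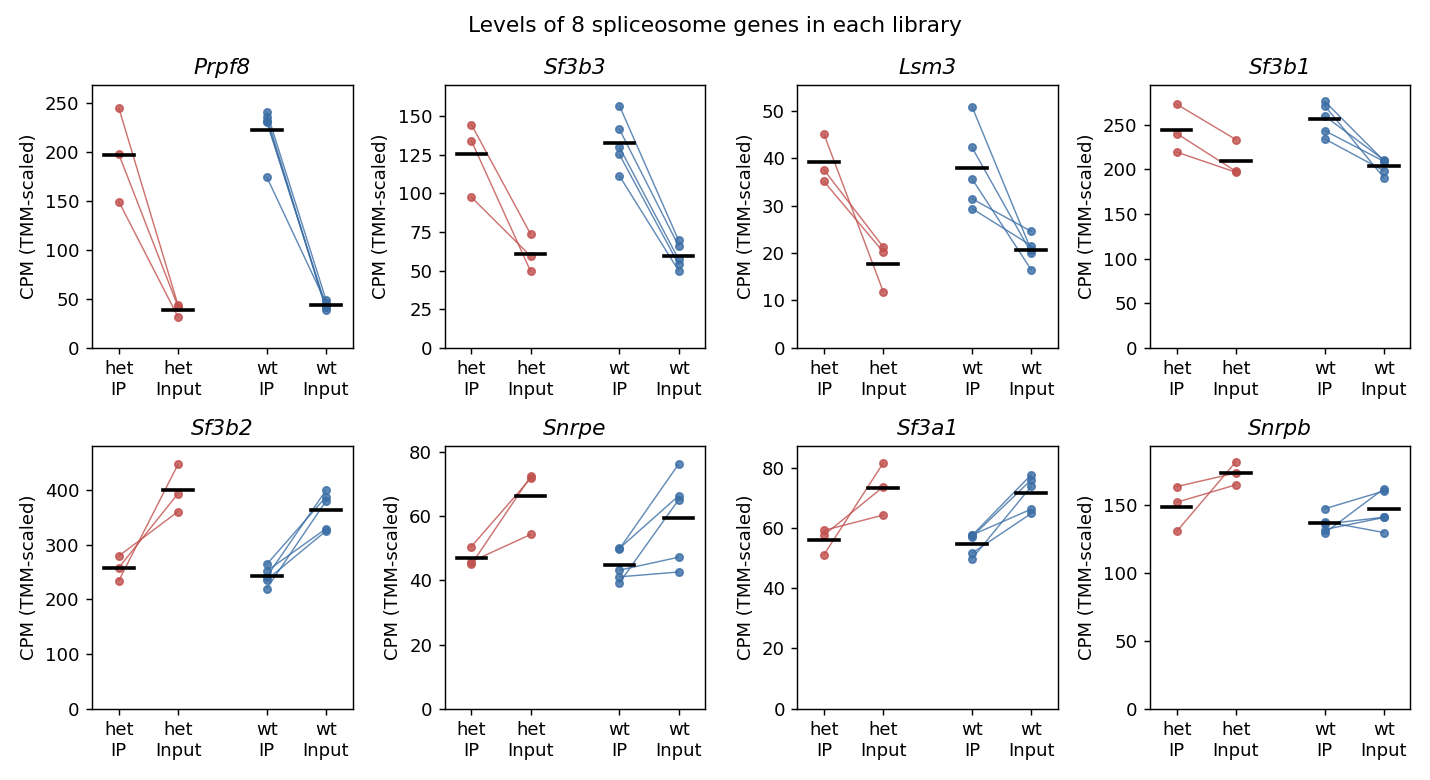
CPM (TMM-scaled, linear axes from 0) of 8 spliceosome genes in each library, with a line joining the IP and Input libraries of an animal and a black bar at the group mean; het is red and wt is blue. The lines fall steeply from IP to Input for Prpf8, Sf3b3 and Lsm3, climb for Sf3b2, Snrpe and Sf3a1, and differ little for Snrpb.

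Coding length was set beside these changes because longer coding sequences can hold more ribosomes. Across all 12563 tested protein-coding genes with a length, the log2 change of IP over Input went with coding length at a Spearman rho of 0.292 in het and 0.341 in wt. Across the 46 spliceosome genes rho was 0.196 and 0.22, and without Prpf8 0.141 and 0.167. Genes are not independent replicates and share the same libraries, so these are descriptions. Below 600 coding bases, the 19 spliceosome genes had a median log2 change of 0.01 in het and 0.16 in wt, against -0.19 and -0.21 for all genes of that length. From 600 to 1500 bases the 12 genes had 0.07 and 0.08, against 0.03 and 0.01. Above 1500 bases the 15 genes had 0.18 and 0.32, against 0.26 and 0.27. The class median of the spliceosome genes lay further from that of all genes of like length among the short genes than among the long ones. This holds for medians only, as single long genes lay far above (Prpf8) and far below (Sf3b2) the genes of their length.

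After the running median of 500 genes of like coding length was taken off, 29 of the 46 genes lay above and 17 below in het, and 32 above and 14 below in wt. The furthest above were Prpf8 (1.68 in het, 1.72 in wt), Lsm3 (1.34 and 1.09) and Snrpd3 (1.21 and 1.07), and Sf3b2 (-0.94 and -0.91) was the furthest below. Sf3a1 lay at -0.64 in het and -0.67 in wt, and Sf3a2, the gene of the widest error, at -0.65 in het and 0.03 in wt. Prpf8 and Lsm3, with 7005 and 306 coding bases, both stood above the running median at their length. Sf3b2, with 2634 bases, stood below it, where that running median lay above Input. These genes were named for their high or low change of IP over Input, so their distance from the running median is a description. The part of coding length in these changes was not tested. Among the 307 genes with 6000 or more coding bases, whose median was 0.67 in het and 0.64 in wt, Prpf8 ranked 5 in het and 4 in wt, and among all 12563 it ranked 39 and 25.

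**Figure D3:**
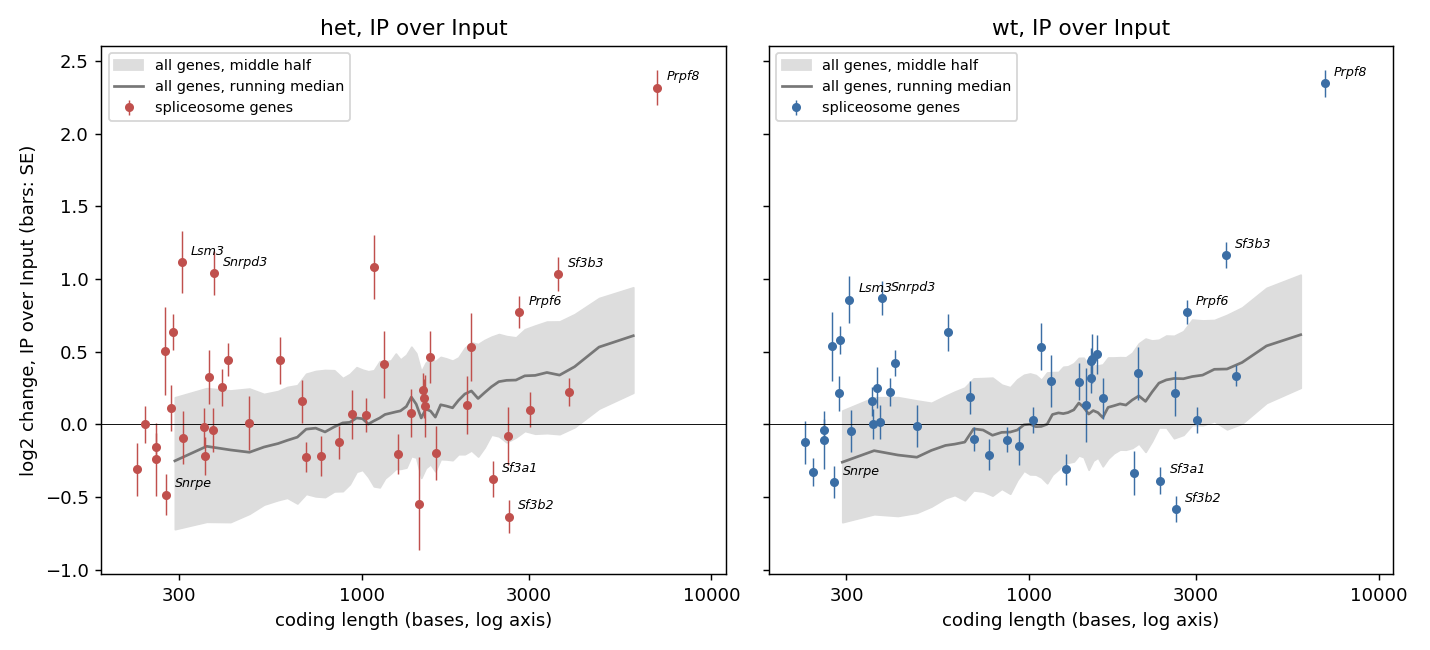
Log2 change in IP over Input against coding length (log axis) for 45 spliceosome genes, het on the left and wt on the right, with bars of 1 SE; the grey line is the running median and the band the middle quartiles of all tested protein-coding genes. Prpf8 lies far above the band at the long end, Lsm3 and Snrpd3 above it at the short end, and Sf3b2 and Sf3a1 below it.

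Between genotypes, no spliceosome gene passed the test in either fraction. In IP, 0 of 46 were called by edgeR's quasi-likelihood test (adjusted p below 0.05), where 0% of all 14755 genes were called, and 0 of 46 had an unadjusted p below 0.05, where 4.09% of all genes did. DESeq2 and limma-voom also called 0 of the family, while DESeq2 called 1 gene of all tested. The groups did not overlap for 0 of 46 genes, where they did not for 3.56% of all genes. Fitted changes ran from -0.27 to 0.27, with a median of 0.07 against 0.003 over all genes and a median SE of 0.14; 32 of 46 were positive, against 50.7% of all genes. The median was 0.044 without het729 and 0.036 without wt734, and 25 of 46 were positive within animal names that start with BT (1 het and 2 wt animals) and 33 of 46 within the numbered names (2 and 3 animals).

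The smallest p in IP was that of Lsm6, which had 63.6, 67.3 and 60.9 CPM in het729, het786 and hetBT13, against 44.7, 47.0, 53.9, 53.8 and 67.4 CPM in wt734, wt736, wt785, wtBT13 and wtBT14. Only wtBT14, the highest library of all, was not below the het values, and the log2 change was 0.26 (SE 0.13, adjusted p = 0.981, edgeR). Lsm14a had 34.2, 25.9 and 22.3 CPM in het IP and 34.0, 33.6, 30.2, 31.0 and 36.0 CPM in wt IP, in the same order of animals, a log2 change of -0.27 (SE 0.15) in which het729 lay among the wt values; it was -0.46 without het729 and -0.14 without hetBT13. Lsm8 had 87.3, 94.7 and 80.2 CPM in het IP and 72.9, 78.3, 68.7, 75.2 and 90.9 CPM in wt IP, a log2 change of 0.18 (SE 0.11), again with wtBT14 within the het range; the adjusted p was 0.981 for each by edgeR. The Lsm8 change was 0.12 without het786, and on log2 CPM it was -0.044 within the BT names and 0.311 within the numbered ones, where those of Lsm6 were 0.016 and 0.432. Prpf8 had a log2 change of -0.18 (SE 0.15) in IP and -0.16 (SE 0.14) in Input. Its direction turned with the form of the name, at 0.067 in IP and 0.105 in Input on log2 CPM within the BT names and -0.31 in both fractions within the numbered ones. Its level in het was 88.6% of that in wt in IP and 90.0% in Input.

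In Input, 0 of 46 were called by edgeR, where 0% of all 13870 genes were, and DESeq2 and limma-voom also called 0 of the family. An unadjusted p below 0.05 was found for 3 of 46 genes (6.52%), near the 7.06% of all genes. The groups did not overlap for 4 of 46 genes (8.7%), where they did not for 5.35% of all genes; these were Snrpb, Lsm11, Lsm12 and Prpf40b. Fitted changes ran from -0.39 to 0.59 with a median of 0.08, against 0.005 over all genes, and 32 of 46 were positive, against 51.3% of all genes. The median was 0.027 without het729, 0.048 without wtBT14 and 0.112 without hetBT13. By the form of the animal's name, 22 of 46 were positive within the BT names and 34 of 46 within the numbered ones, so that the excess of positive changes was not seen within the BT names.

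Snrpb, the gene of smallest p, had 174, 182 and 165 CPM in het Input, against 141, 141, 160.5, 162 and 129.9 CPM in wt Input. Each het library lay above each wt library, and the log2 change was 0.25 (SE 0.10, adjusted p = 0.67, edgeR). Between animals whose names start with BT it was 0.19 on log2 CPM and between those named by a number 0.27. Prpf19 had 55.4, 33.6 and 30.6 CPM in het Input, against 31.1, 25.9, 24.6, 22.0 and 42.1 CPM in wt Input, so that het729 was high and wtBT14 lay above the other het libraries. Its log2 change was 0.49 (SE 0.22, adjusted p = 0.698, edgeR), with 0.007 within the BT names and 0.66 within the numbered ones, and it was 0.15 without het729. Lsm11 had 11.4, 9.31 and 10.2 CPM in het Input, against 12.6, 14.9, 12.6, 13.7 and 14.5 CPM in wt Input. All het values lay below all wt values at a low level, and the log2 change was -0.39 (SE 0.18, adjusted p = 0.698, edgeR). With the 4 het Input libraries whose titles end in IX or IXX added, the changes were 0.178 for Snrpb, 0.514 for Prpf19 and -0.256 for Lsm11.

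By class, the 7 Sm ring genes all had positive changes in Input, from 0.15 (Snrpd3) to 0.38 (Snrpg), with a median of 0.24, none of them called. Within animal names that start with BT, 6 of the 7 were positive, and within the numbered names 7 of 7. In IP, 6 of the 7 were positive with a median of 0.11. The 8 Lsm ring genes were all positive in IP, with a median of 0.11, and 6 of 8 in Input. Those in IP include Lsm2 at 0.008 (SE 0.14), Lsm3 at 0.048 (SE 0.18) and Lsm7 at 0.050 (SE 0.15). Of all genes tested, 50.7% were positive in IP and 51.3% in Input, and no difference of a class from these shares was tested. Within the BT names 6 of the 8 were positive in IP and 4 in Input, and within the numbered names 7 and 7; the sign was the same in both forms for 5 of 8 in IP and 3 of 8 in Input. The tri-snRNP genes had 1 positive change of 5 in each fraction, with medians of -0.12 in IP and -0.09 in Input. The changes of the 11 U2 genes were centred on 0.01 in IP and 0.08 in Input. Summed over the 47 genes, the level was 2891, 2871 and 2927 CPM in the IP of het729, het786 and hetBT13, against 2765, 2784, 2931, 2820 and 2991 CPM in that of wt734, wt736, wt785, wtBT13 and wtBT14. In Input it was 2696, 2667 and 2518 CPM in het, against 2502, 2427, 2602, 2426 and 2445 CPM in wt. The groups overlapped in both fractions, and het stood at 101.3% of wt in IP and 105.9% in Input (103.4% within the BT names and 106.8% within the numbered ones).

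**Figure D4:**
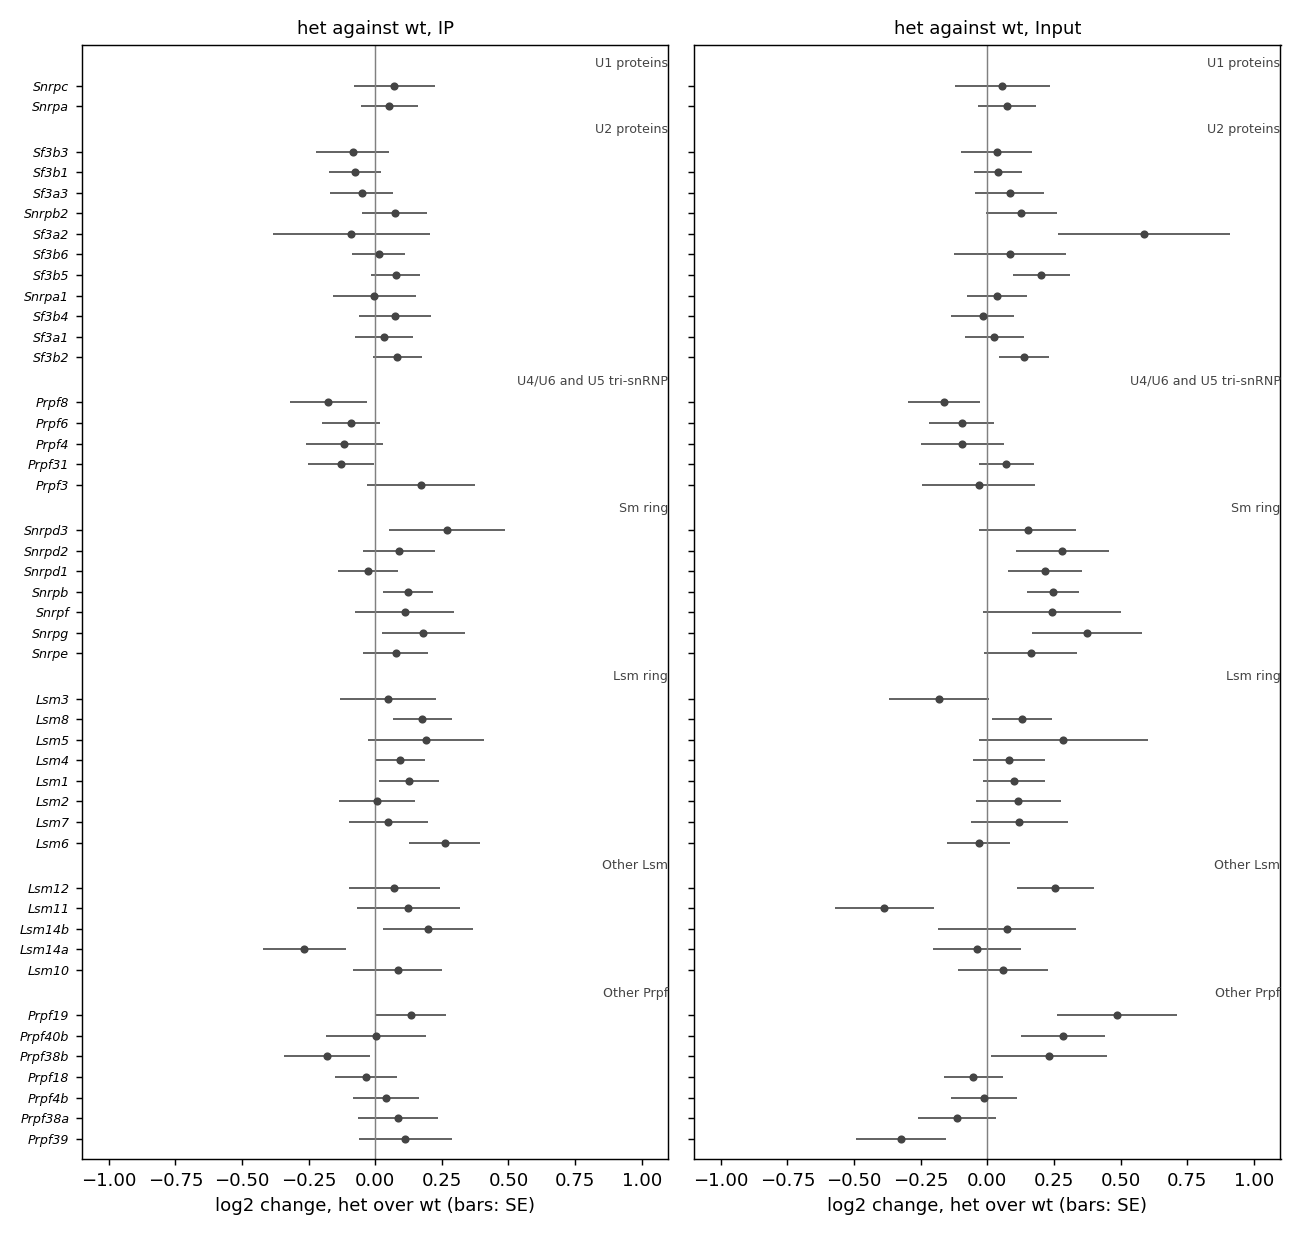
Fitted log2 change of 45 spliceosome genes in het over wt, in IP on the left and Input on the right, with bars of 1 SE, by class of protein. Most points lie within 0.3 of 0, the Sm ring lies to the right of 0 in Input, and no gene passed the test in either fraction.

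The change of IP over Input was also compared between genotypes in 1 fit. By edgeR, 0 of 46 genes differed, where 0% of all 14797 genes did, and 0 of 46 had an unadjusted p below 0.05, where 3.07% of all genes did; DESeq2 and limma-voom called 0 of the family. A call in wt without one in het, as for Sf3b1, Prpf31, Sf3a3, Prpf19, Sf3b4 and Lsm6, is therefore not shown to be a difference between genotypes. The smallest p was that of Lsm6, whose log2 change of IP over Input was 0.00 in het and -0.33 in wt, a difference of 0.33 (SE 0.16, adjusted p = 1.0, edgeR). In Input it had 77.2, 60.8 and 54.3 CPM in het729, het786 and hetBT13, against 63.8, 66.4, 69.0, 63.8 and 68.8 CPM in the wt animals in the order above, and the Input groups overlapped.

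For Lsm11 the difference was 0.55 (SE 0.27, adjusted p = 1.0, edgeR), with 22.3, 23.3 and 20.2 CPM in het IP and 28.3, 15.8, 20.5, 16.3 and 19.2 CPM in wt IP. Prpf39, a U1-associated protein, had 21.0, 24.4 and 18.3 CPM in het IP against 24.2, 16.6 and 17.2 CPM in het Input, and 19.98, 23.7, 21.2, 15.4 and 17.5 CPM in wt IP against 27.0, 22.9, 20.2, 27.2 and 26.0 CPM in wt Input. IP was not uniformly above or below Input in either genotype, and the difference was 0.47 (SE 0.25, adjusted p = 1.0, edgeR), or 0.26 without het786.

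Other genes of the splicing pathway were counted from lists written from general knowledge. Of all genes tested, 22.6% were called higher in IP and 22.1% lower in het, and 28.5% and 25.6% in wt. No difference of a list from these shares was tested. Of 62 other spliceosome genes, 26 were called higher in IP and 7 lower in het, and 29 and 9 in wt, with medians of 0.22 and 0.20. Of 14 genes of snRNP assembly, which load the Sm ring onto RNA, 9 were higher and 2 lower in het, and 8 and 2 in wt (medians 0.55 and 0.43). Tgs1, which converts the cap of snRNAs to its trimethylated form, had log2 changes of 0.68 (SE 0.15) in het and 0.89 (SE 0.11) in wt, and Strap, a partner of the SMN complex, had -0.50 (SE 0.11) in het.

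The lists of regulators are given as counts beside the same shares of all genes tested (22.6% higher and 22.1% lower in het, 28.5% and 25.6% in wt), with no test of a difference. Of 16 SR protein genes, 2 were higher and 10 lower in each genotype, with medians of -0.48 in het and -0.51 in wt. Srsf3, a short SR protein gene of 492 coding bases, averaged 118 ± 23.6 CPM in het IP and 219 ± 12.3 CPM in het Input. In wt it averaged 103 ± 7.22 CPM in IP and 187 ± 16.9 CPM in Input. The long genes of the list went both ways. Srrm2, with 8109 coding bases, was higher in wt IP at 0.86 (SE 0.08). Son, with 7332, was lower on average in IP, at 79.16 ± 12.15 CPM against 114.6 ± 15.04 CPM in het Input. In wt, Son averaged 97.94 ± 12.04 CPM in IP and 111.6 ± 13.59 CPM in Input. Of 23 hnRNP genes, 2 were higher and 8 lower in het, and 2 and 9 in wt (medians -0.13 and -0.10, with 10 positive and 13 negative changes in each), with Hnrnpk at -0.86 (SE 0.11) in het and -0.79 (SE 0.09) in wt. Of 24 neuronal splicing regulators, 2 were higher and 11 lower in het, and 2 and 10 in wt (medians -0.24 and -0.19); the furthest named was Qk, which oligodendrocytes express strongly, at -1.58 (SE 0.16) in het and -2.09 (SE 0.13) in wt. Of 8 exon junction complex genes, 2 were higher and 1 lower in het, and 4 and 2 in wt (medians 0.17 and 0.30). Between genotypes, and in the difference between fractions, edgeR called 0 genes of these lists; an unadjusted p below 0.05 was found in IP, Input and the difference for 4, 1 and 0 of the other spliceosome genes, 0, 0 and 0 of the assembly genes, 1, 1 and 1 of the SR protein genes, 0, 2 and 2 of the hnRNP genes, 0, 0 and 1 of the neuronal regulators and 0, 0 and 0 of the exon junction complex genes. These lists were compared with the core family only as counts side by side.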

How the data were processed

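The values are raw counts of reads by Ensembl gene in 20 libraries, as the authors deposited them. Per the submitters' processing notes HTSeq did the counting and mm10 was the build; the HTSeq version, the aligner, the annotation release and the use of strand are not given in the sources used here. Libraries were made with Smart-seq2 per the labels' protocols, a method that marks neither strand nor single molecules. All values are whole and none is negative. Another 4 het Input libraries, whose titles end in IX or IXX and whose animals have no IP, entered an alternative only.

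Gene type, coordinates and coding length (principal transcript, without stop) came from GENCODE vM21 on GRCm38, the mm10 assembly; 24873 identifiers were matched and 444 were not. With R 4.3.3 and edgeR 4.0.16, genes passing filterByExpr (count minimum of 10) were scaled by TMM and entered robust quasi-likelihood F tests, Benjamini-Hochberg adjusted over all tested genes. Genotype was tested in IP (3 against 5 libraries) and in Input separately. IP against Input, and its difference between genotypes, came from 1 model over 16 libraries that included the animal as a block, since the protocol takes both from 1 lysate; deviations from group means correlated within animals with r from 0.054 to 0.217 over 14797 genes. CPM are TMM-scaled. The running median by coding length used 500 genes, and log2 ratios of CPM a pseudocount of 0.5. Motif cores for NRF1 and YY1 were shortened after a first look at the motif counts. Python 3.11.15 was used for the rest. The fits were tested on simulated data.

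Alternatives were RLE scaling, no filter, a count minimum of 30, DESeq2 1.42.0, limma 3.58.1 (voom), the form of the animal name (BT or a number) as a covariate, no block, each animal left out, raw library totals and the IX libraries. The labels do not say what the form of a name stands for. A permutation test planned for the summed level was not run, because members chosen with results known allow no p for a score.

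Values in every library are given for the 3 genes highest and the 3 lowest in IP over Input (mean of both genotypes), the 3 of smallest p in each genotype comparison and in the difference, and Prpf8, Sf3b1 and Snrpb; Snrpd3 and Prpf6 and other genes named outside this rule were chosen after their values were seen. For each other list, the 2 genes of smallest p per comparison were eligible to be named. The values of 1 member are not reported here; it remains in the counts and medians. The members, classes and lists were chosen with earlier results of these data known.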

Additional observations from a re-analysis of the deposited data

Results flagged for a closer look

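Prpf8 in the IP of wt736 stood apart from the other 4 wt IP libraries, at 174.6 CPM against 231.0 to 241.1 CPM. In a group of 5, the gap to the nearest library divided by the whole range was above the critical value of 0.71. It was the only library set apart in 30 such checks of the named genes and the summed level, and chance flags about 1 in 20 groups. In its Input, wt736 had 45.9 CPM, within the 39.2 to 49.1 CPM of the wt Input libraries.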

How the results depend on the processing

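No count, and no named gene in a comparison where it was followed, changed direction under any alternative run. Within the BT names, however, Prpf8 (IP and Input) and Lsm8 (IP) turned sign between genotypes. Other values were not followed, among them that of Lsm6 in IP over Input, at 0.00 in het. No member was called between genotypes, or in the difference between fractions, under any alternative. Leaving out 1 animal at a time moved the median change of the members, het over wt, between 0.027 (without het729) and 0.112 (without hetBT13) in Input and between 0.036 and 0.085 in IP. It moved the calls of IP against Input between 9 and 13 in het, from 13 with all animals, and between 18 and 23 in wt, from 20. With no replicate block the calls were 13 in het and 20 in wt, the medians 0.094 and 0.201, and the calls in the difference 0. The summed Input level of het was 105.9% of wt with TMM and 101.9% with raw library totals; the cause was not tested. Of 372 values of named genes under alternatives, 366 kept their side of the threshold, 3 lost a call (Sf3a1 and Snrpe in het without single het animals) and 3 gained one: Sf3b1 in het with the name form as covariate, and Snrpb in het with RLE scaling or a count minimum of 30. Over all genes, the unfiltered edgeR fit called 28 genes between genotypes in Input and 11 in the difference. With 3 het animals, changes of the size of the members' standard errors were not detectable, and Lsm5, Sf3a2 and Lsmem1 rest on few counts.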
